A study of Mus musculus with 10 samples.

Results

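The proteasome is the protease complex that degrades proteins marked with ubiquitin, and its constitutive subunits were followed here as 36 genes in sorted mouse splenic B cells. The members were all genes of the count table named Psma, Psmb, Psmc or Psmd with a number, without the immunosubunits Psmb8, Psmb9 and Psmb10, and they made up 36 of 46316 genes. The rule is by name, with no measured value in it, but it was set with earlier results of these data known. Of the 36, 34 had enough counts to be tested. The other two are paralogs with a known tissue restriction: Psma8, of the testis, had between 0 and 2 counts in a library, and Psmb11, of thymic epithelium, between 0 and 3 counts. Levels are CPM (counts scaled by TMM to a common library total), and where no read was counted the upper limit was 0.157 to 0.238 CPM by library, for counting error only.

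Poly(A) RNA of 10 C57BL/6 mice was compared in 3 groups. The pBIC10 group (n = 3, 2 females and 1 male) held B220+GFP+ lymphoma cells of moribund mice that carried the floxed alleles p53F/F, Blimp1F/F and IL-10F/F together with IKK2castopF/stopF and Cg1Cre/+. The pBIC group (n = 3, all females) held the same kind of cells from moribund mice with these alleles other than IL-10F/F, as a model of the activated B cell-like form of diffuse large B cell lymphoma (ABC-DLBCL). The YC group (n = 4, 3 females and 1 male) carried YFPstopF/+ and Cg1Cre/+ and served as the normal control. By the series description, YC cells were B220+YFP+ germinal centre B cells taken 10 days after the second of 2 injections of sheep red blood cells, the first of which was given 20 days before. Some labels of YC describe it in the words used for the lymphomas, and there the series description was followed. All groups share Cg1Cre, which is made from the Cγ1 locus and acts mainly in germinal centre B cells. Ages were not given in the sources used here.

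The libraries held 17100995 to 18578955 counts in pBIC10, 17797344 to 19134178 in pBIC and 12590117 to 14330172 in YC. All 6 B cell markers were read in every group, with a summed level of 2297 to 3787 CPM in pBIC10, 1301 to 2808 CPM in pBIC and 6106 to 7603 CPM in YC. Relative to YC, all 6 were lower in pBIC and 5 in pBIC10 (edgeR, adjusted p under 0.05). In pBIC10 against pBIC, 3 were higher. The shares of all genes tested were 27.7%, 26.9% and 15.6% in turn. Among counts of heavy chain variable segments, Ighv7-3 made up 67.4 to 70.5% in pBIC10 and Ighv8-11 made up 51.6 to 59.1% in pBIC, while the leading segment differed between YC libraries. The tests treat libraries of a group as independent, and their p-values measure only the spread between these libraries, which in each lymphoma group share a segment. Only pBIC10 was sequenced for this series, while pBIC and YC came from earlier work, so in both comparisons of pBIC10 the group and the library batch cannot be told apart. Sample titles mark pBIC and YC as re-analyzed and do not say whether they were made together. Their library totals did not overlap, and a batch between them was not tested. In bulk RNA, fewer cells that express a gene and less RNA per cell cannot be told apart either.

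As background, the 26S proteasome is a barrel, the 20S core, capped by the 19S regulatory particle. The outer rings of the core are built of alpha subunits (Psma genes), which form the gate. The inner rings are built of beta subunits (Psmb genes), of which Psmb5, Psmb6 and Psmb7 encode the constitutive proteases. In the regulatory particle, the base holds the ATPases that unfold substrates (Psmc genes), the scaffolds Psmd1 and Psmd2 and the ubiquitin receptor Psmd4, and the lid (other Psmd genes) includes the deubiquitinase Psmd14. Psmd5, Psmd9 and Psmd10 encode chaperones that assemble the base and leave it. Blood cells, B cells among them, also make immunosubunits, which interferon gamma induces further and which take the place of the constitutive proteases. Nfe2l1, also called Nrf1, is a transcription factor that raises proteasome genes when proteasome activity falls short.

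The constitutive subunits were transcribed in all 3 groups, and their summed level was higher in the lymphoma libraries than in YC. Tested members lay between 13.7 CPM (Psmd10) and 460.2 CPM (Psmd8) in a single library. Summed over the 36 genes, the level was 4631, 4311 and 4412 CPM in the pBIC10 libraries, 4031, 6657 and 5722 CPM in pBIC, and 3336, 3136, 3672 and 3374 CPM in YC. All lymphoma libraries lay above all YC libraries, and pBIC overlapped pBIC10 through pBIC replicate 1, which stood low. Per kilobase of merged exons of a gene, mean levels had a median of 74.3 CPM in pBIC10, 82.8 CPM in pBIC and 59.4 CPM in YC. Psmb2, a structural beta subunit, had the highest level per kilobase in each group (255.7, 285 and 132 CPM in pBIC10, pBIC and YC), and Psmd5 had the lowest (10.03, 13.1 and 9.34 CPM). This ranking depends on the merged length. Psmb1 had a mean of 254.9 CPM in pBIC10 over 3427 bases, and Psmb2 219.7 CPM over 859 bases.

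**Figure D1:**
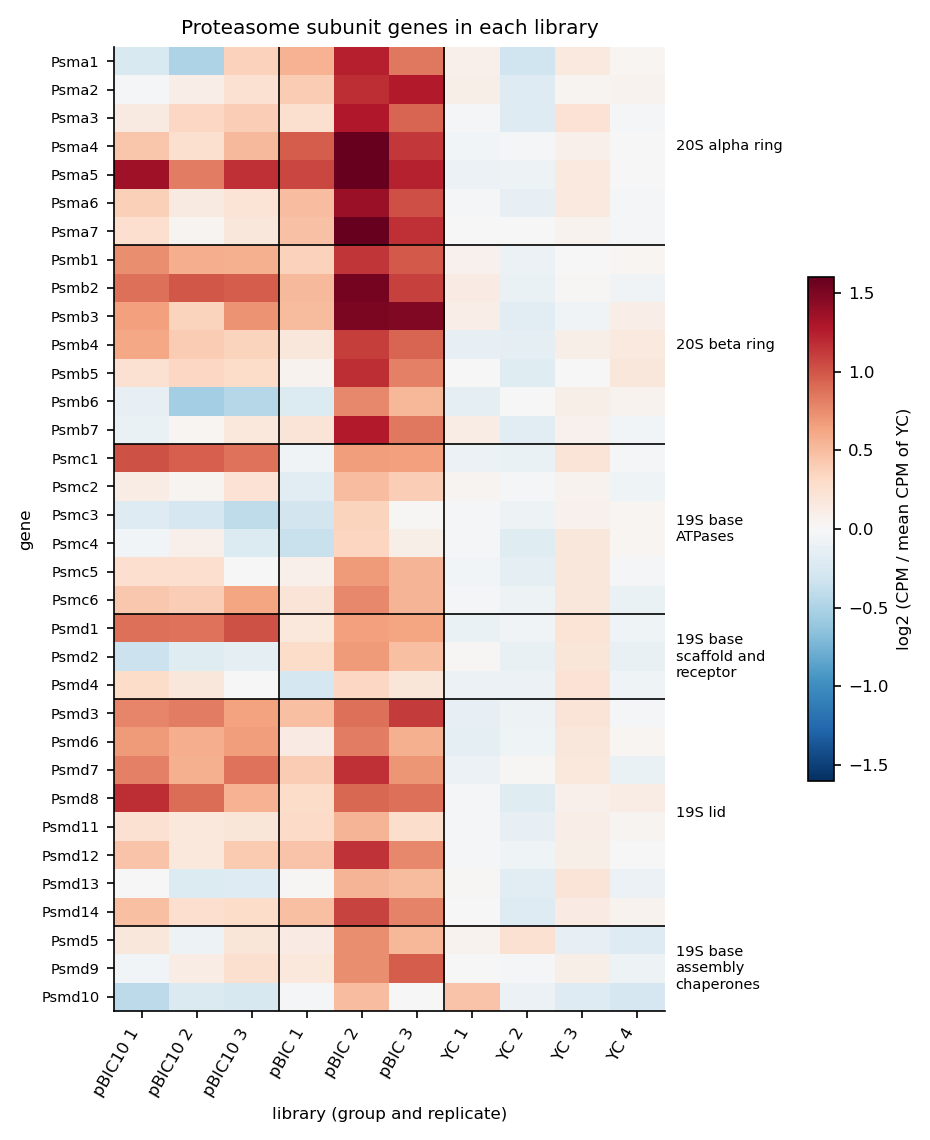
Level of each of the 34 tested subunit genes (rows, by part of the proteasome) in each library (columns), as log2 of its CPM over the mean CPM of the 4 YC libraries. Red cells are above the YC mean and blue cells below. pBIC replicates 2 and 3 are red in nearly all rows, pBIC replicate 1 is paler, and pBIC10 libraries are pale in most alpha subunits but red in Psma5, Psmc1, Psmd1 and several lid genes.

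The core and the regulatory particle were then summed apart. The 20S core genes summed to 1700, 1554 and 1699 CPM in pBIC10, to 1710, 3206 and 2590 CPM in pBIC and to 1301, 1181, 1355 and 1315 CPM in YC. For the 17 genes of the 19S particle the sums were 2844, 2673 and 2618 CPM in pBIC10, 2228, 3311 and 3001 CPM in pBIC, and 1940, 1863, 2236 and 1983 CPM in YC. The ratio of core to particle was 0.598, 0.581 and 0.649 in pBIC10, 0.767, 0.968 and 0.863 in pBIC, and 0.670, 0.634, 0.606 and 0.663 in YC. The 3 pBIC libraries had the highest ratios without overlap, and pBIC10 and YC overlapped. These sums weight long and highly transcribed genes more, and they carry no test.

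**Figure D2:**
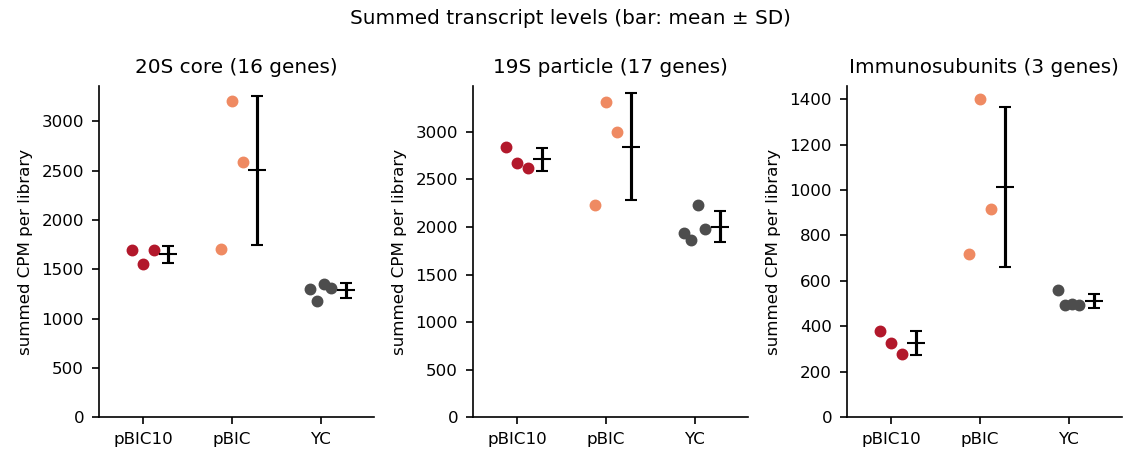
Summed CPM per library (points) of the 20S core genes, the 19S particle genes and the 3 immunosubunit genes in pBIC10, pBIC and YC, with mean and SD as bars. In the core, pBIC10 libraries (1554 to 1700 CPM) lie below the lowest pBIC library and above YC, in the 19S particle they lie within the pBIC range, and in the immunosubunits they lie below both other groups.

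Promoters are shown for 4 members. Psmb5 and Psmb6 were picked because they encode proteases of the core and hold the motif of Nfe2l1 targets. Psmc1 and Psmd2 of the base were picked because they share a motif and had estimates of opposite sign between the lymphomas. Of these 2 estimates, that of Psmd2 was called and that of Psmc1 was not. Windows run from 250 bases before to 50 bases after the annotated start (RefSeq, build GRCm38.p6, which is older than the build of the counts), written in the direction of the gene. In the first 2, capitals mark TGACNNNGC, the core of the antioxidant response element that Nfe2l1 and related factors bind. Psmb5 is at chr14:54617946-54618245 on the minus strand, with the motif starting 47 bases before the start, and Psmb6 at chr11:70525107-70525406 on the plus strand, with the motif starting 9 bases before. In the last 2, capitals mark CTTCCGG, the reverse complement of CCGGAAG, a core that ETS factors bind. Psmc1 is at chr12:100109952-100110251 and Psmd2 at chr16:20651402-20651701, both on the plus strand, with the motif starting 28 and 26 bases before the start.
Psmb5: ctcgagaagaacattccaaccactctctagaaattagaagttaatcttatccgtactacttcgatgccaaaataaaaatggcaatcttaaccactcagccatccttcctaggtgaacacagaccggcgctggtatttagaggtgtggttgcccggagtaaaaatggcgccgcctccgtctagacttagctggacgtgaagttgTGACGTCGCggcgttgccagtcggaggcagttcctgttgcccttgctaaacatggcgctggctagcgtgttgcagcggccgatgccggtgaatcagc
Psmb6: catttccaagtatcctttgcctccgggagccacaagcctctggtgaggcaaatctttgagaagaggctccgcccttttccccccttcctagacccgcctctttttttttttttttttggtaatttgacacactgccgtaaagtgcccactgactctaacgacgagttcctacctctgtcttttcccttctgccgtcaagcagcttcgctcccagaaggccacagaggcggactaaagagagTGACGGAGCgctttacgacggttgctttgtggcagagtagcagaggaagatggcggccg
Psmc1: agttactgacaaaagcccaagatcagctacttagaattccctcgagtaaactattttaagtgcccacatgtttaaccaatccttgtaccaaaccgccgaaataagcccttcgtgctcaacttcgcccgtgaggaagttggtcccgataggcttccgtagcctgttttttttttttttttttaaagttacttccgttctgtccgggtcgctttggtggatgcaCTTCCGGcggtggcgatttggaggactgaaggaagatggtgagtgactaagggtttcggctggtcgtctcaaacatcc
Psmd2: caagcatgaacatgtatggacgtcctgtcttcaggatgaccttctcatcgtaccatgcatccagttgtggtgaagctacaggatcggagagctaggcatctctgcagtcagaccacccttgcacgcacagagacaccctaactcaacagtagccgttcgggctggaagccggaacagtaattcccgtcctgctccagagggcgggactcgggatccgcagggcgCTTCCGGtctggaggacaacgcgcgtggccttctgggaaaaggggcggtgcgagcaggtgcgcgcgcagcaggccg

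Promoter windows were found for 29 of the 36 members, and both strands were searched, with matches of different motifs allowed to overlap. TGACNNNGC was present in 5 of 29 members (Psmb5, Psmb6, Psmc6, Psmd9 and Psmd12), against 14% of 27025 genes with a window. Among tested genes with a window, it was in 5 of 28 members, against 16.7% of genes. CCAAT, the box that NF-Y binds, was present in 12 of 29 members, against 41.1% of genes. CCGGAAG was present in 10 of 29 members, against 9.93% of genes with a window and 19.2% of the tested genes with one. The genes that held it were divided unevenly, with 9 of 14 in the 19S particle and 1 of 12 in the core (Psma6). A match describes letters in a window and is not evidence of binding.

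Lymphoma cells with floxed Il10 (pBIC10) were first set against those without (pBIC). Transcripts of most outer ring subunits of the core were lower in pBIC10, at 0.506 to 0.588 times the pBIC level in the 5 alpha subunits called, and those of most genes of the regulatory particle were not called. Of 34 members, 9 were lower, 0 were higher and 25 were not called (edgeR, adjusted p under 0.05). At an unadjusted p under 0.05, 2 were higher (Psmc1 and Psmd1), and DESeq2 and limma-voom called 0 higher. Of all 17718 genes tested, 15.1% were called lower, 15.6% higher and 30.7% either way. The median log2 fold change of the members was -0.36, against -0.01 over all genes, and it was -0.21 without pBIC replicate 2.

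Psma4, an alpha subunit, had 101, 88.6 and 106 CPM in pBIC10 libraries, against 144, 247 and 162 CPM in pBIC libraries. Psma7, another alpha subunit, had 151, 129 and 142 CPM in pBIC10, against 174, 379 and 281 CPM in pBIC. Psma2 had 90.1, 99.2 and 109 CPM in pBIC10, against 122, 209 and 221 CPM in pBIC. All pBIC10 libraries lay below all pBIC libraries in these alpha subunits, and pBIC replicate 1 was the nearest to them in each. Log2 fold changes were -0.91 ± 0.20 for Psma4 (estimate ± SE, adjusted p = 0.00362), -0.98 ± 0.23 for Psma7 (adjusted p = 0.00538) and -0.89 ± 0.21 for Psma2 (adjusted p = 0.00636). Psma1 and Psma6 were lower as well, by -0.98 ± 0.24 and -0.77 ± 0.20 (adjusted p = 0.0077 and 0.0122). The remaining alpha subunits were not called, with -0.59 ± 0.23 for Psma3 and -0.30 ± 0.22 for Psma5.

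Among the 7 tested beta subunits, the proteases Psmb6 and Psmb7 were lower in pBIC10 and the protease Psmb5 was not called. Psmb6, which cuts after acidic residues, had 96.1, 72.8 and 77.4 CPM in pBIC10, against 91.1, 180 and 153 CPM in pBIC. Psmb7, which cuts after basic residues, had 96.1, 105 and 116 CPM in pBIC10, against 119, 249.7 and 186 CPM in pBIC. Psmb5, which cuts after hydrophobic residues and is the main target of bortezomib, had 39.8, 42.3 and 41.2 CPM in pBIC10, against 35.2, 76.2 and 59.0 CPM in pBIC. Groups did not overlap in Psmb7, while pBIC replicate 1 lay among the pBIC10 libraries in Psmb6 and below them in Psmb5. The log2 fold changes were -0.78 ± 0.22 for Psmb6 (adjusted p = 0.0174), -0.81 ± 0.22 for Psmb7 (adjusted p = 0.0157) and -0.47 ± 0.24 for Psmb5 (adjusted p = 0.154). The structural beta subunits Psmb1, Psmb2, Psmb3 and Psmb4 were not called, with estimates between -0.64 (Psmb3) and -0.16 (Psmb2). In all, 7 of 14 core genes were lower, with a median of -0.71, and 2 of 17 genes of the 19S particle, with a median of -0.11. Of all genes tested, 15.1% were lower, and the difference between the particles was not tested.

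The lower genes of the 19S particle were Psmd2 and Psmd13. Psmd2, the base scaffold that binds ubiquitin-like domains, had 137, 151 and 155 CPM in pBIC10, against 214, 279 and 242 CPM in pBIC, without overlap (log2 fold change -0.73 ± 0.16, adjusted p = 0.00419). Psmd13, a lid subunit, changed by -0.52 ± 0.18 (adjusted p = 0.0433), and this call held in 11 of the 24 other fits run. Psmd1, the other large scaffold of the base, had 311, 309 and 345 CPM in pBIC10, against 191, 268 and 264 CPM in pBIC. Psmc1, an ATPase of the base, had 194, 185 and 175 CPM in pBIC10, against 92.0, 153 and 151 CPM in pBIC. In both, all pBIC10 libraries lay above all pBIC libraries, and neither was called (0.42 ± 0.17, adjusted p = 0.0788 for Psmd1, and 0.49 ± 0.20, adjusted p = 0.0758 for Psmc1). Across the members, 11 genes were lower and 2 higher without overlap, against 19.7% and 22.1% of all genes tested. The other 5 ATPases, Psmd4 and the other 7 lid genes had estimates between -0.47 (Psmd12) and 0.18 (Psmd8). The 3 base chaperones had estimates between -0.55 (Psmd9) and -0.38 (Psmd5) and were not called.

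These counts moved with single libraries. Without pBIC replicate 1, whose summed level was the lowest of its group, 19 members were lower, the 9 above among them. In that fit 2956 of 18527 genes were lower, against 2674 of 17718 in the main fit. Without pBIC10 replicate 2, 5 were lower, and Psma6, Psmb6, Psmb7 and Psmd13 lost their call (adjusted p of at least 0.0530). Of 18567 genes in that fit, 1812 were lower. Leaving out pBIC10 replicate 3 or pBIC replicate 2 also ended the call of Psmb6 (adjusted p = 0.055 and 0.0568), and leaving out pBIC10 replicate 1 or pBIC replicate 2 that of Psmb7 (0.0646 and 0.0551). The fit of the 2 groups alone ended both calls (0.0536 for Psmb6, 0.0514 for Psmb7), and females alone that of Psmb6 (0.0674). Psma1, Psma2, Psma4, Psma7 and Psmd2 kept their call without any 1 library.

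**Figure D3:**
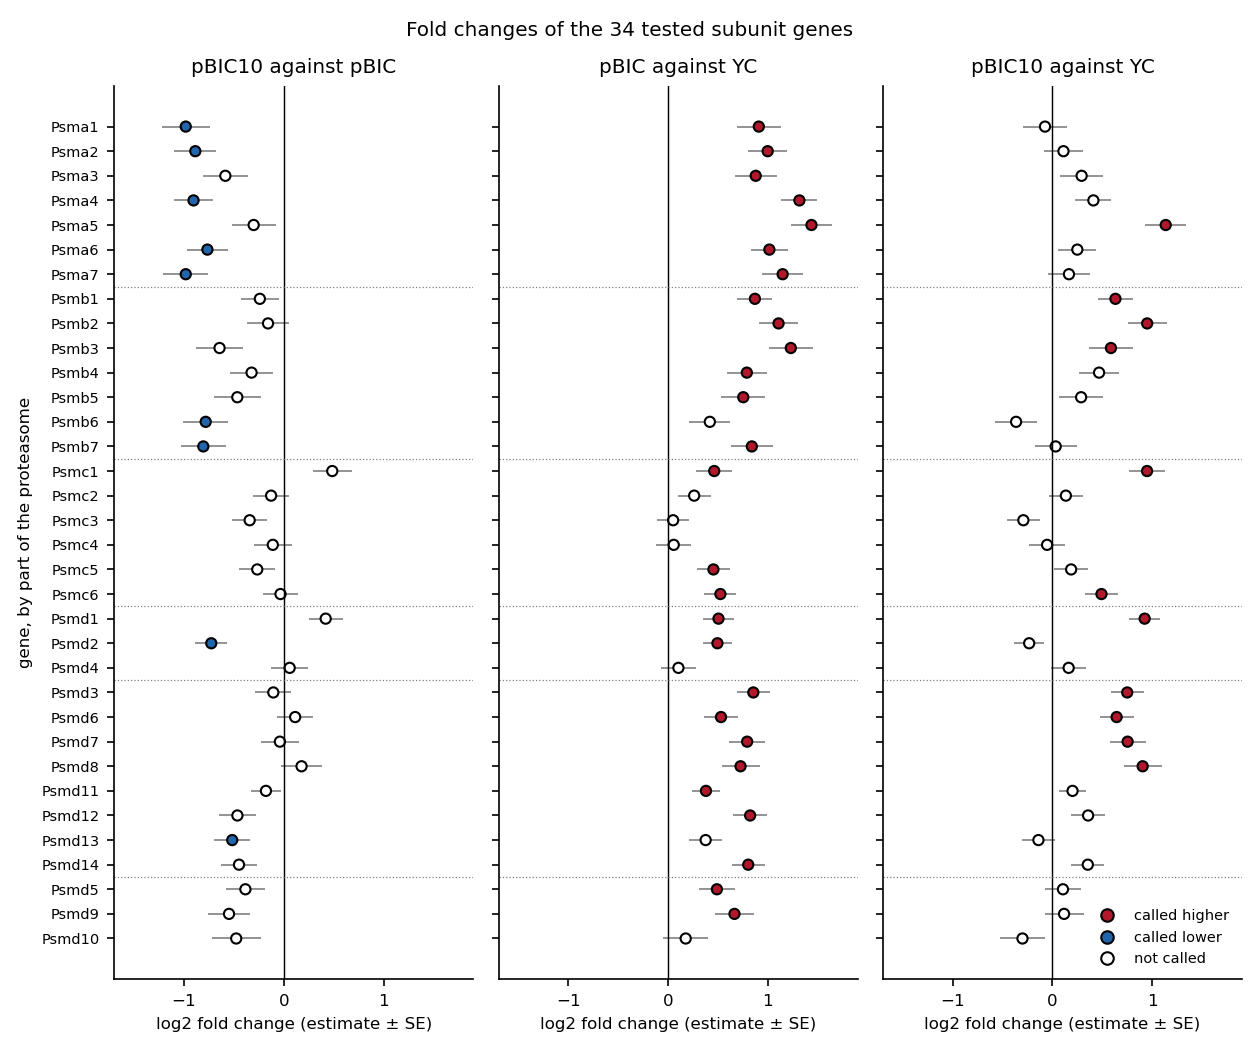
Log2 fold change (horizontal axis, estimate ± SE from edgeR) of each of the 34 tested subunit genes (vertical axis, by part of the proteasome) in the 3 comparisons. Filled red points are called higher, filled blue points called lower and open points not called at an adjusted p under 0.05. Blue points gather in the alpha ring in pBIC10 against pBIC, and most points are red in pBIC against YC. In pBIC10 against YC, 7 of 17 genes of the 19S particle and 4 of 14 core genes are red.

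The comparison of pBIC with YC sets lymphoma cells against germinal centre B cells. Most members were higher in pBIC, the alpha ring by about a log2 unit, and no member was lower. Of 34 members, 27 were higher, against 26.4% of all genes tested, and 0 were lower, against 27.7%, with 54.1% called either way. Also at an unadjusted p under 0.05 edgeR found 0 lower, and DESeq2 and limma-voom called 0. All 34 estimates were above 0, with a median log2 fold change of 0.74, against 0.02 over all genes. The libraries did not overlap in 21 members, all higher in pBIC, against 26.3% of all genes.

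All 7 tested alpha subunits were higher, with a median of 1.02. Psma4 had 144, 247 and 162 CPM in pBIC, against 71.6, 72.4, 78.2 and 74.2 CPM in YC (log2 fold change 1.32 ± 0.18, adjusted p = 6.95e-05). Psma5 had 59.1, 103 and 66.1 CPM in pBIC, against 26.3, 26.6, 31.4 and 27.9 CPM in YC (1.44 ± 0.21, adjusted p = 9.55e-05). Groups did not overlap in either, and the lowest pBIC library stood well above the highest YC library. Psma5 has an expressed processed copy, Psma5-ps, with a mean of 31.2 ± 4.67 CPM in pBIC10, 36.8 ± 9.08 CPM in pBIC and 13.3 ± 1.32 CPM in YC (SD, n = 3, 3 and 4). Reads of the pair may be split between them, so the level of Psma5 is uncertain. The other alpha subunits rose by 0.88 (Psma3), 0.91 (Psma1), 0.998 (Psma2), 1.01 (Psma6) and 1.15 (Psma7), with adjusted p between 5.40e-04 and 0.00389.

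Of the 7 tested beta subunits, 6 were higher in pBIC, with Psmb6 not called. Psmb2 had 164, 328 and 244 CPM in pBIC, against 124, 106, 115 and 110 CPM in YC (1.11 ± 0.20, adjusted p = 4.57e-04). Psmb3, a structural subunit, had 62.0, 123 and 121 CPM in pBIC, against 46.9, 38.6, 41.8 and 46.99 CPM in YC (1.23 ± 0.22, adjusted p = 4.59e-04). All pBIC libraries stood above all YC libraries in both. For the proteases, YC libraries had 33.6, 29.4, 33.6 and 38.2 CPM of Psmb5, and pBIC replicate 1 lay within that range (0.75 ± 0.22, adjusted p = 0.0112). In Psmb7 the YC libraries had 112, 92.5, 109 and 100.5 CPM, all below pBIC (0.84 ± 0.21, adjusted p = 0.00431). In Psmb6 they had 95.4, 105, 113 and 109.7 CPM, all above pBIC replicate 1 and below the other two pBIC libraries (0.42 ± 0.21, adjusted p = 0.102). Psmb1 and Psmb4 rose by 0.87 ± 0.18 and 0.79 ± 0.20.

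Of the 17 genes of the regulatory particle 12 were higher, with a median of 0.49, beside 13 of 14 and 0.95 in the core; the difference between the particles was not tested. Lid genes made up 7 of these, namely Psmd3 (0.85), Psmd12 (0.82), Psmd14 (0.80), Psmd7 (0.79), Psmd8 (0.73), Psmd6 (0.53) and Psmd11 (0.38), with adjusted p between 8.79e-04 and 0.0318. The scaffolds Psmd1 and Psmd2 rose by 0.51 ± 0.16 and 0.49 ± 0.15, and Psmd4 was not called (0.10 ± 0.17). Of the ATPases, Psmc1, Psmc5 and Psmc6 rose by 0.46, 0.45 and 0.52, and Psmc2, Psmc3 and Psmc4 were not called, with estimates between 0.05 and 0.26. The chaperones Psmd5 and Psmd9 rose by 0.49 and 0.66, and Psmd10 was not called (0.18 ± 0.23). With 1 library left out, between 20 and 30 members were higher. Over all genes, these fits called between 3962 (of 17411) and 4720 (of 18516) higher. The calls lost in at least 1 of these fits were those of Psmc1, Psmc5, Psmc6, Psmd1, Psmd2, Psmd5, Psmd6, Psmd9 and Psmd11, with the adjusted p then between 0.0505 (Psmd2, without YC replicate 4) and 0.152 (Psmc1, without pBIC replicate 3). Each of the 10 libraries cost at least 1 of these calls except pBIC replicate 1, without which Psmb6, Psmc2 and Psmd13 were called higher too. Over the 24 other fits, the call held in 8 for Psmc1, 13 for Psmd5, 14 for Psmc5 and 17 for Psmd11. RLE scaling, DESeq2, sex as a covariate and the fit of the 2 groups alone each ended the calls of Psmc1, Psmc5 and Psmd5 (adjusted p between 0.0529 and 0.0753), limma-voom that of Psmc1 (0.0668), and RLE scaling and the fit of the 2 groups that of Psmd11 (0.0536 and 0.064).

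The comparison of pBIC10 with YC sets the lymphoma with floxed Il10 against the same controls, so it shares libraries with both other comparisons. Fewer members were called, namely 7 of 17 genes of the 19S particle and 4 of 14 core genes. The median log2 fold changes were 0.35 and 0.29, and the difference between the particles was not tested. Of 34 members, 11 were higher, against 24.8% of all genes tested, and 0 were lower, against 26.9%, with 51.7% called either way. At an unadjusted p under 0.05 edgeR again found 0 lower, as did DESeq2 and limma-voom after adjustment. The median log2 fold change was 0.27, against 0.01 over all genes, and 27 of 34 estimates were above 0. In 17 members all pBIC10 libraries lay above all YC libraries, against 30% of all genes, and in 2 (Psmc3 and Psmd2) below, against 31%.

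Among the scaffolds and ATPases, Psmd1, Psmc1 and Psmc6 were higher. YC libraries had 157, 162, 197 and 162 CPM of Psmd1, below the lowest pBIC10 library at 309 CPM (0.92 ± 0.16, adjusted p = 3.45e-04). They had 89.9, 88.8, 111 and 93.7 CPM of Psmc1, against 175 CPM or more in pBIC10 (0.95 ± 0.18, adjusted p = 7.73e-04). Psmc6 rose by 0.49 ± 0.16 (adjusted p = 0.0214). Psmd2 was not called (-0.23 ± 0.15, adjusted p = 0.211), with 176, 160.5, 198 and 159.7 CPM in the YC libraries, each above all pBIC10 libraries. The scaffolds Psmd1 and Psmd2 had estimates of opposite sign in both comparisons of pBIC10, while both rose in pBIC against YC.

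Of the lid, Psmd3, Psmd6, Psmd7 and Psmd8 were higher, by 0.75, 0.64, 0.75 and 0.90, with adjusted p between 0.0015 and 0.00656, and the other 4 lid genes had estimates between -0.14 (Psmd13) and 0.36 (Psmd12). In the core, 4 of 14 genes were higher. Psma5 had 72.1, 49.5 and 63.4 CPM in pBIC10, against at most 31.4 CPM in a YC library (1.14 ± 0.20, adjusted p = 5.11e-04), and its processed copy rose by 1.23 ± 0.20. Psmb2 had 210, 227 and 222 CPM in pBIC10, against at most 124 CPM in YC (0.95 ± 0.20, adjusted p = 0.00133). Both were well separated from YC in every library. Psmb1 and Psmb3 rose by 0.63 ± 0.18 and 0.59 ± 0.22. The proteases were not called, at -0.36 ± 0.21 for Psmb6, 0.03 ± 0.21 for Psmb7 and 0.29 ± 0.22 for Psmb5. The 6 other alpha subunits had estimates between -0.08 (Psma1) and 0.41 (Psma4), Psmb4 stood at 0.47, and the chaperones lay between -0.30 and 0.12. With 1 library left out, 9 to 15 members were higher. Over all genes, these fits called between 3764 (of 18548) and 4956 (of 18581) higher. Psmb3 lost its call without pBIC10 replicate 1 or 3 or any 1 YC library (adjusted p between 0.0611 and 0.102), and Psmc6 without pBIC10 replicate 3 or YC replicate 2 or 4 (0.0575 to 0.0734). The call of Psmb3 was also lost with limma-voom (0.0533), with a covariate for sex (0.0514) and among the female libraries (0.164), the last of which ended that of Psmc6 too (0.0668).

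The immunosubunits were set beside the proteases that they replace. All 3 were lower in pBIC10 than in pBIC, with estimates beyond those of all constitutive subunits. Psmb8, which replaces Psmb5, had 204, 189 and 152 CPM in pBIC10, 343, 697 and 498 CPM in pBIC, and 308, 265, 298 and 278 CPM in YC. Psmb9, which replaces Psmb6, had 84.2, 65.1 and 58.5 CPM in pBIC10, 216, 420 and 204 CPM in pBIC, and 143, 120, 109 and 127 CPM in YC. Psmb10, which replaces Psmb7, had 91.6, 73.3 and 66.8 CPM in pBIC10, 159, 285 and 215 CPM in pBIC, and 108, 111, 90.3 and 90.7 CPM in YC. In each, pBIC10 lay below pBIC and pBIC above YC without overlap, and pBIC10 also lay below YC in Psmb8 and Psmb9, whereas it overlapped YC in Psmb10. Changes in pBIC10 against pBIC were -1.499 ± 0.23, -2.01 ± 0.27 and -1.51 ± 0.22 for Psmb8, Psmb9 and Psmb10 (adjusted p of at most 3.32e-04). In pBIC against YC they were 0.84, 1.17 and 1.13 (adjusted p of at most 0.00427). In pBIC10 against YC, Psmb8 and Psmb9 fell by 0.66 and 0.85 on the log2 scale (adjusted p = 0.0186 and 0.0108), and Psmb10 was not called (-0.37 ± 0.20, adjusted p = 0.136).

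Ratios of counts within a library need no scaling between libraries. The ratio of Psmb8 to Psmb5 was 5.12, 4.47 and 3.68 in pBIC10, 9.76, 9.14 and 8.46 in pBIC, and 9.16, 9.01, 8.86 and 7.29 in YC. The ratio of Psmb9 to Psmb6 was 0.875, 0.894 and 0.757 in pBIC10, 2.37, 2.34 and 1.33 in pBIC, and 1.498, 1.15, 0.966 and 1.16 in YC. The ratio of Psmb10 to Psmb7 was 0.953, 0.695 and 0.576 in pBIC10, 1.33, 1.14 and 1.16 in pBIC, and 0.966, 1.20, 0.831 and 0.902 in YC. All ratios were lower in pBIC10 than in pBIC without overlap, with mean differences of -1.05, -1.21 and -0.73 in log2 (Psmb8, Psmb9 and Psmb10 in turn). A two-sided exact permutation test gave p = 0.1 for each, the smallest that 3 against 3 libraries allow (adjusted p = 0.171 over 9 comparisons). Against YC, the ratio in pBIC10 was lower without overlap for Psmb8 (-0.96) and Psmb9 (-0.49), with an exact p = 0.0571 for each, the smallest that 3 against 4 allow (adjusted p = 0.171), and overlapped for Psmb10 (-0.41, exact p = 0.171, adjusted p = 0.193). Between pBIC and YC all ratios overlapped, with exact p = 0.514, 0.114 and 0.171 (adjusted p = 0.514, 0.171 and 0.193). The design cannot pass 0.05 in any of these tests.

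**Figure D4:**
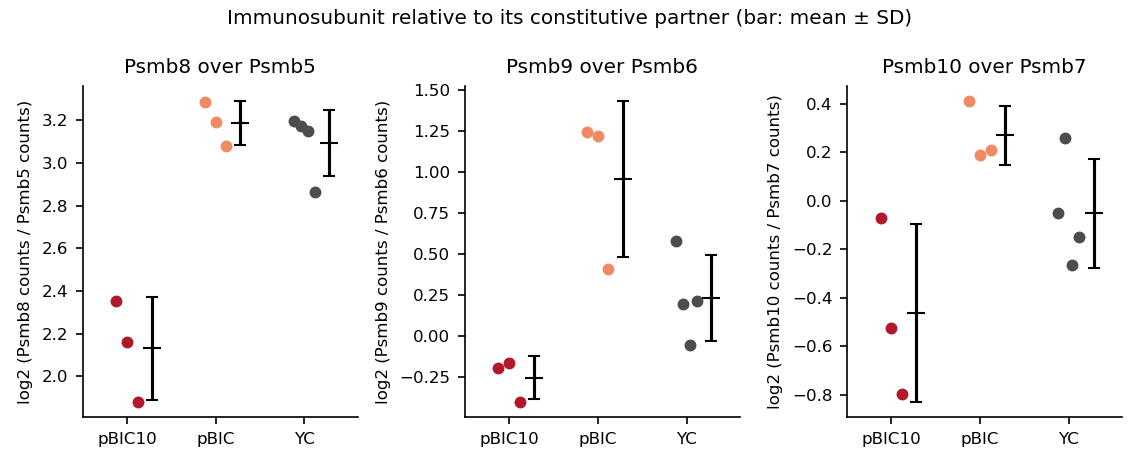
Log2 ratio of immunosubunit to constitutive subunit counts in each library (points), with mean and SD as bars, in pBIC10, pBIC and YC. The pBIC10 libraries lie below all pBIC libraries in each panel, and below all YC libraries for Psmb8 over Psmb5 (3.68 to 5.12, against 7.29 to 9.16 in YC, as ratios) and Psmb9 over Psmb6.

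Fold changes also moved with transcript length over the whole table, and core genes are short. The median merged exon length was 1172 bases in the core and 1989 bases in the 19S particle. In pBIC10 against pBIC, the median log2 fold change over all genes was -0.25 under 1000 bases and 0.20 at 4000 bases and over. Between pBIC and YC the same medians were 0.52 and -0.16, and in pBIC10 against YC 0.17 and 0.03. A floor was then set at the mean level of the lowest tested member, with no upper limit and with the members included. Among genes at or above this floor, medians under 1000 bases were -0.41, 0.74 and 0.24 (comparisons in the same order). The 4 members of that length had -0.555, 0.93 and 0.44. In the next length class, such genes had -0.34, 0.48 and 0.12, and its 11 members -0.48, 0.84 and 0.19. At 4000 bases and over, such genes had 0.20, -0.07 and 0.11. Spearman's rho of length and log2 fold change was 0.31, -0.31 and -0.03 over the 34 members (pBIC10 against pBIC, pBIC against YC, pBIC10 against YC) and 0.19, -0.15 and 0.01 over 15916 genes. Genes share libraries and are not independent, so no p is given. Ribosomal protein genes, which are short, had medians of -0.55, 0.90 and 0.35 over 86 genes.

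With the trend with length taken out of each library, an alternative added after seeing the data, 8 members were lower in pBIC10 than in pBIC (Psmd13 lost its call) and Psmc1 and Psmd6 were called higher, with log2 fold changes of 0.71 and 0.38. With pBIC set against YC, 21 members stayed higher, with Psmb4, Psmb5, Psmb7, Psmc1, Psmc5 and Psmd6 no longer called. In pBIC10 against YC 12 were higher, and Psmb6 was called lower (log2 fold change -0.53). The 5 alpha subunits and the proteases Psmb6 and Psmb7 were lower in pBIC10 than in pBIC under this alternative too. The median of the members was then -0.215 in pBIC10 against pBIC and 0.485 in pBIC against YC. Of 15916 genes in this fit, 2463 were lower in pBIC10 than in pBIC. Relative to YC, 4097 were higher in pBIC and 4139 in pBIC10.

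With the trend with GC content taken out, likewise added after seeing the data, the 9 members lower in pBIC10 than in pBIC kept their call. In pBIC10 against YC, Psmc6 (0.10, adjusted p = 0.633), Psmb1 (0.32, adjusted p = 0.131) and Psmd6 (0.37, adjusted p = 0.0686) were no longer called higher. Against YC, pBIC had 20 members higher, with Psma3, Psmc1, Psmc6, Psmd1, Psmd5, Psmd6 and Psmd11 no longer called (adjusted p between 0.0552 and 0.438). Of 15916 genes in this fit, 2745 were lower in pBIC10 than in pBIC, and 3932 were higher in pBIC than in YC.

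**Figure D5:**
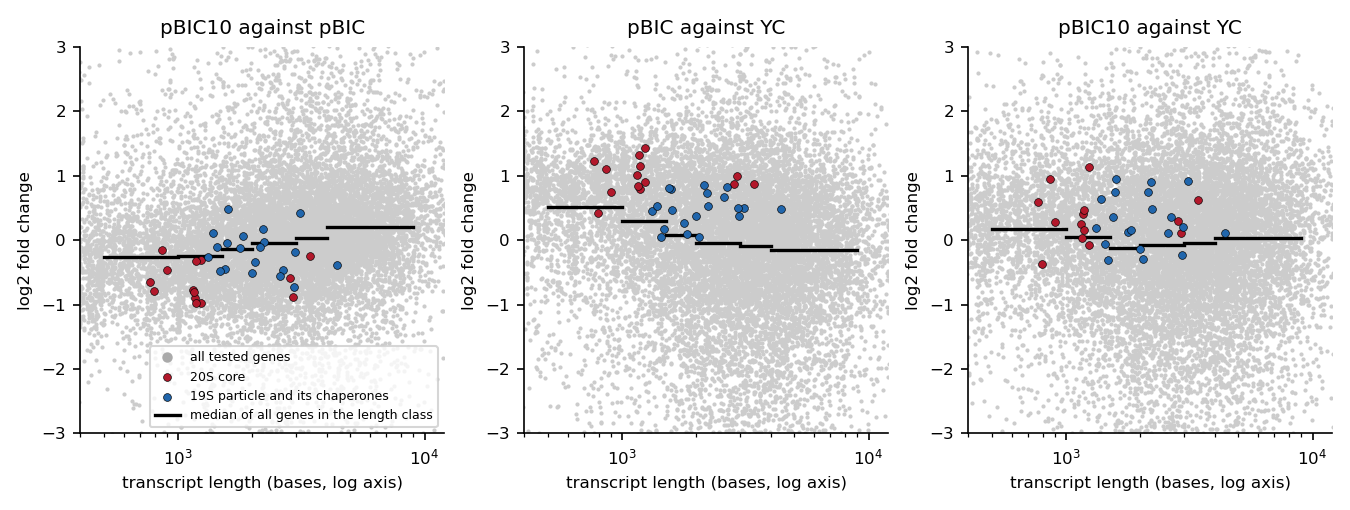
Log2 fold change against transcript length (log axis) in the 3 comparisons, with all tested genes in grey, 20S core genes in red and 19S particle genes and base chaperones in blue. Black lines are medians of all genes in a length class, with the outermost classes drawn over part of their span, and genes beyond ±3 or outside the length axis are not shown. Medians climb with length in pBIC10 against pBIC (-0.25 to 0.20) and descend in pBIC against YC (0.52 to -0.16). Most core genes lie below the line in the first and above it in the second. Among genes at or above the mean level of the lowest tested member, medians under 1000 bases were -0.41 in the first and 0.74 in the second.

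Genes that act with the proteasome were read from lists. The counts below stand beside these shares of all genes tested. In pBIC10 against pBIC 15.1% were lower and 15.6% higher. In pBIC against YC 27.7% were lower and 26.4% higher, and in pBIC10 against YC 26.9% and 24.8%. Of 5 activators and inhibitors, 3 were lower in pBIC10 than in pBIC. They were Psme1 (-1.35 ± 0.20) and Psme2 (-1.09 ± 0.21), whose products form a cap that interferon gamma induces, and Psmf1 (-0.64 ± 0.18), an inhibitor. Relative to YC, pBIC had 4 higher, Psme1 (1.31), Psme2 (1.17), Psme3 (0.58) and Psmf1 (0.53), and pBIC10 had 1 higher, Psme3, which encodes the nuclear cap (0.48). Psme2 has a near copy, Psme2b, so its level is uncertain. Of 6 tested genes of proteasome assembly and its adaptors, the core chaperones Psmg4 (-1.05 ± 0.24) and Psmg1 (-0.66 ± 0.22) were lower in pBIC10 than in pBIC. All 6 were higher in pBIC than in YC, among them Psmg4 (1.47), Psmg1 (1.30), Pomp (0.93), which matures the core, and Ecpas (0.73), a scaffold on the particle. In pBIC10, 5 were higher than in YC, among them Psmg2 (1.22), Ecpas (0.92), Psmg3 (0.81) and Psmg1 (0.64).

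Among 5 other subunits and bound enzymes, none passed the test in pBIC10 against pBIC (edgeR). The deubiquitinases Uchl5 and Usp14 were higher than in YC in both lymphomas, by 1.64 and 1.07 in pBIC10 and by 1.29 and 1.19 in pBIC. The ligase Ube3c rose by 0.55 in pBIC10 and 0.44 in pBIC, and the small lid subunit Sem1 by 0.61 in pBIC, while in pBIC10 it was not called (0.12 ± 0.23). Among 7 ubiquitin shuttles, which carry substrates to the particle, Ubqln4 (0.67 ± 0.17) and Ddi2 (0.67 ± 0.23), the protease that activates Nfe2l1, were higher in pBIC10 than in pBIC, and Zfand5 (-0.61 ± 0.17) was lower. Against YC, pBIC10 had higher Ubqln4 (1.04), Ddi2 (1.01) and Rad23b (0.86) and lower Ubqln2 (-1.63) and Zfand5 (-1.20). Set against YC, pBIC had higher Rad23b (0.81) and lower Ubqln2 (-1.61) and Zfand5 (-0.59).

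Of 7 genes of the p97 segregase, which pulls ubiquitinated proteins from membranes and complexes, 4 cofactors were lower in pBIC10 than in pBIC, namely Faf2 (-0.78), Ufd1 (-0.80), Faf1 (-0.59) and Ubxn1 (-0.51), with adjusted p between 0.00379 and 0.0453. The share of all genes tested that was lower there was 15.1%. The segregase gene Vcp was higher than in YC in both lymphomas (0.49 in pBIC10, 0.53 in pBIC), and Faf2 (-0.53) and Ufd1 (-0.47) were lower in pBIC10 than in YC. Among ubiquitin genes and activating enzymes, Ubb, which encodes polyubiquitin, was lower than in YC in both lymphomas (-0.44 in pBIC10, -0.61 in pBIC). Rps27a, which encodes ubiquitin fused to a ribosomal protein, was higher than in YC in both (0.39 in pBIC10, 1.18 in pBIC) and lower in pBIC10 than in pBIC (-0.80 ± 0.16), and the activating enzyme Uba6 was higher than in YC in both (0.65 in pBIC10, 0.69 in pBIC).

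Of 6 tested genes around Nfe2l1, that gene was lower in pBIC10 than in pBIC. It had 65.6, 64.6 and 62.9 CPM in pBIC10, 126, 106 and 108 CPM in pBIC, and 89.0, 93.6, 64.9 and 65.7 CPM in YC. pBIC lay above both other groups in every library, and pBIC10 and YC overlapped at their edges. The log2 fold change was -0.82 ± 0.18 in pBIC10 against pBIC (adjusted p = 0.0041), 0.54 ± 0.17 in pBIC against YC (adjusted p = 0.0153) and -0.28 ± 0.17 in pBIC10 against YC (adjusted p = 0.178). Mafk, a small Maf partner of Nfe2l1, was higher in pBIC10 than in pBIC (0.89 ± 0.25) and lower in pBIC than in YC (-1.13 ± 0.24). Maff, another, was lower than in YC in both (-2.01 in pBIC10, -2.66 in pBIC), and Mafg was higher in both (0.64 in pBIC10, 0.53 in pBIC). The motif that these factors bind was in the windows of Psmb5 and Psmb6 printed above. Among tested genes with a window, 17.9% of members held it, against 16.7% of genes, and 0 of 7 alpha subunits did. Of the members that held it, Psmb6 was called lower in pBIC10 against pBIC, and Psmb5, Psmc6, Psmd9 and Psmd12 were not called. A link of Nfe2l1 to the members was not tested.

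Markers of other cell types and of cycling moved with the groups. Of all genes tested, 15.1% were lower and 15.6% higher in pBIC10 than in pBIC. Relative to YC, 27.7% were lower in pBIC and 26.9% in pBIC10. Of 6 proliferation markers, 4 were lower in pBIC10 than in pBIC, and their sum was 917 to 1139 CPM in pBIC10, 727 to 1523 CPM in pBIC and 1375 to 2296 CPM in YC. Against YC, 5 were lower in pBIC10 and 1 in pBIC. T cell markers summed to 139 to 231 CPM in pBIC10, 57.0 to 99.5 CPM in pBIC and 392 to 561 CPM in YC, with 8 of 8 lower in pBIC than in YC and 7 of 8 lower in pBIC10. In pBIC10 against pBIC, 6 of these 8 were lower and 2 were higher, Cd2 (186, 191 and 78.3 CPM in pBIC10, against 59.6, 25.3 and 22.4 CPM in pBIC) and Lck (36.5, 37.6 and 57.7 CPM, against 25.7, 9.67 and 7.66 CPM), and these 2 made up most of the sum in each pBIC10 library. Plasma cell markers summed to 39.1 to 62.6 CPM in pBIC10, 103 to 462 CPM in pBIC and 867 to 2288 CPM in YC, and germinal centre markers to 27.2 to 56.1, 61.9 to 79.5 and 459 to 868 CPM. All 5 germinal centre markers were lower than in YC in both lymphomas. NK cell markers summed to 0.67 to 1.77 CPM in pBIC10, 1.82 to 7.86 CPM in pBIC and 18.1 to 47.1 CPM in YC. Myeloid markers summed to 11.6 to 12.5, 8.46 to 59.6 and 88.5 to 152.6 CPM. Erythroid markers summed to 308 to 823 CPM in pBIC10, 14.4 to 326 CPM in pBIC and 87.8 to 265 CPM in YC. No marker of these lists was at 0 in all libraries of a group. Their part in the results on proteasome genes was not tested.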

How the data were processed

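RNA of sorted splenic B cells was sequenced as single-end 50 nt reads after poly(A) enrichment, per the labels. The deposited values are unnormalized read counts by gene; the submitters' processing notes name featureCounts, FastQC and GRCm39. Aligner, annotation release, strand setting and versions were not stated there, so reads of overlapping or antisense genes may be included. All 10 count columns were matched to samples, and 0 were left over. No replicate pair agreed within sampling noise (chi-square per gene of at least 18.9).

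Counts were filtered with filterByExpr (17718 of 46316 genes kept), scaled by TMM and fitted with edgeR 4.0.16 (R 4.3.3; robust quasi-likelihood, 1 coefficient per group, 10 libraries). A gene was called at a Benjamini-Hochberg adjusted p under 0.05 over all genes tested, two-sided. Adjusted p-values printed for genes come from edgeR unless another tool is named. Levels are CPM on TMM-scaled totals. The fit was tested on simulated data.

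The members and lists were chosen with earlier results of these data known. Named were all members, with every library for the 3 constitutive proteases and for up to 4 called members with the smallest adjusted p in each comparison and direction, and up to 4 called genes per list and direction. A gene of the related lists is not reported here. The printed promoters were picked among these.

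Alternatives were other scalings (RLE, upper quartile, total counts), other filters, DESeq2 1.42.0, limma-voom 3.58.1, a covariate for sex, the female libraries by themselves, fits of just the compared groups, removal of antigen receptor genes or of ribosomal protein genes, a threshold of 0.01 and leaving out each library. Removal of trends with transcript length or GC content was added after seeing the data. Length and GC content came from GENCODE M21 (GRCm38) by symbol, with a value for 89.8% of tested genes and all 34 tested members. Transcript length here is the merged length of all exons of a gene. Tables and figures used Python 3.11.15 and matplotlib 3.10.9.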

Additional observations from a re-analysis of the deposited data

Results flagged for a closer look

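Of 37 genes checked in the 4 YC libraries (the tested members and the immunosubunits), 2 had a library far from the other three by Dixon's criterion, where chance flags about 1 in 20. Psmd1 stood at 197 CPM in YC replicate 3, against 157, 162 and 162 CPM in the other YC libraries. Psmd4 stood at 134 CPM in the same library, against 107, 107 and 110 CPM. Groups of 3 libraries were not checked in this way.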

How the results depend on the processing

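Under every scaling, filter and tool tried, and with any 1 library left out, members called lower outnumbered those called higher in pBIC10 against pBIC, and the reverse held in both comparisons with YC. The median of the members kept its sign throughout. In pBIC10 against pBIC, 2 members were called higher with total counts alone (Psmc1, Psmd1) and 2 with the length trend removed (Psmc1, Psmd6), and 1 with the GC trend removed (Psmc1), against 0. Members called lower numbered 5 at an adjusted p under 0.01, and 5 to 19 with 1 library left out, against 9. In pBIC against YC, 17 members were called higher at 0.01, against 27, and 20 to 30 with 1 library left out. Of 17718 genes, 1489 were lower at 0.01 in pBIC10 against pBIC, and 3295 were higher in pBIC against YC. In pBIC10 against YC, 2 members were called lower in the fit of the 2 groups alone (Psmb6, Psmc3), 1 with the length trend removed (Psmb6) and 1 with the GC trend removed (Psmd10), against 0, and the median was 0.16 and 0.11 without these trends, against 0.27. The cause was not tested.

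Estimates that changed sign belonged to members called on neither side. In pBIC10 against pBIC these were, with total counts alone, Psmd7 (0.008) and Psmc6 (0.010), and with the length trend removed Psmb2 (0.18), Psmc2 (0.058), Psmc4 (0.14), Psmd7 (0.19), Psmd3 (0.009), Psmc5 (0.003) and Psmc6 (0.074). In pBIC against YC they were Psmc3 with RLE scaling (-0.004) or DESeq2 (-0.004), with the length trend removed Psmc3 (-0.074), Psmd4 (-0.072), Psmc4 (-0.28), Psmb6 (-0.083) and Psmd10 (-0.14), and with the GC trend removed Psmc2 (-0.056) and Psmd10 (-0.20). In pBIC10 against YC they were Psmb7 with RLE scaling (-0.005), DESeq2 (-0.005) or females alone (-0.001), Psmc4 in females alone (0.10), with the length trend removed Psmb7 (-0.14) and Psma7 (-0.004), and with the GC trend removed Psmd5 (-0.13), Psmb7 (-0.27), Psmd14 (-0.039), Psmc2 (-0.17), Psma6 (-0.033), Psma3 (-0.064) and Psma2 (-0.27). With 1 library left out, estimates in pBIC10 against pBIC ran from -0.16 to 0.076 for Psmc6, -0.19 to 0.16 for Psmd7, -0.092 to 0.15 for Psmd4, -0.041 to 0.25 for Psmd6, -0.37 to 0.079 for Psmb2, -0.27 to 0.027 for Psmc4 and -0.25 to 0.057 for Psmd3. In pBIC against YC they ran from -0.072 to 0.19 for Psmc3 and -0.055 to 0.22 for Psmc4, and in pBIC10 against YC from -0.35 to 0.11 for Psma1, -0.034 to 0.105 for Psmb7 and -0.13 to 0.033 for Psmc4.

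No paired analysis was possible because the labels give no replicate numbers shared between groups. Every tested member had at least 13.7 CPM in each library, and the groups held 3 or 4 libraries each.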
